A study of Mus musculus with 9 samples.

Results

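The transcripts described here are those of 46 genes of glycolysis and of the response to low oxygen, among 55335 genes in the deposited table. They were chosen by symbol from a list, and for Aldoa, whose symbol has 2 rows, the row with the higher mean was taken. Of the 46, 26 encode glycolytic enzymes, their regulators and the transporters of glucose and lactate, 7 encode the hypoxia-inducible factor (HIF) or the proteins that sense oxygen for it, and 13 are HIF targets outside glycolysis. Bulk RNA-seq covered 9 libraries of mouse peritoneal macrophages, phagocytes of the abdominal cavity, in 3 groups of 3 libraries. After 1 h in RPMI 1640 medium with antibiotics, every culture was stimulated for 4 h with 1 µg/mL of lipopolysaccharide (LPS), a bacterial surface molecule that macrophages sense through TLR4. The LPS group received nothing else, the LPS+EtOH group also received 5% ethanol, and the LPS+CPZ group was also given CPZ at 100 µM, an abbreviation that is not spelled out. Each library was an equal pool of RNA from 3 samples. The labels speak of biological replicates without saying whether the pooled samples came from different animals or from different dishes. The p-values therefore measure only the spread between these pools, which may be technical. Neither strain, sex nor age of the mice, nor a batch, is named. Unstimulated cells, cells given both ethanol and CPZ, and cells given only the solvent of CPZ were not analysed here, so each comparison is between LPS-treated groups. The study's title concerns alcohol and macrophage polarization in colitis and names the ion channel TRPV1 with the MAPK and NF-kB pathways.

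Glycolysis turns glucose into pyruvate through a chain of cytosolic enzymes, several of which exist as isozymes from separate genes, and pyruvate reduced to lactate leaves the cell through monocarboxylate transporters. HIF is a dimer of an oxygen-labile alpha subunit and the stable subunit ARNT. In the presence of oxygen the EGLN prolyl hydroxylases mark the alpha subunit for destruction through VHL, and when that fails HIF raises the transcription of most glycolytic genes and of genes of mitophagy, blood vessel growth and collagen modification. Macrophages activated by LPS are known for high glycolysis, and HIF-1α is controlled mostly at the level of the protein, which RNA-seq does not measure.

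The values are FPKM, fragments normalised to transcript length and library size, summing to between 302126 and 363356 per library, and the number of fragments behind them is unknown. Between 11096 and 11266 genes stood at 1 FPKM or more in the LPS libraries, 8024 to 8366 in LPS+EtOH and 10135 to 10625 in LPS+CPZ. The 8 macrophage markers summed to 1628 to 2111 FPKM in LPS, 2757 to 3061 FPKM in LPS+EtOH and 1113 to 1305 FPKM in LPS+CPZ. Of the 7 tested, 3 rose and 3 fell with ethanol, and 2 rose and 4 fell with CPZ: Cd68 had a mean of 55.5 FPKM in LPS, 363 FPKM with ethanol and 405 FPKM with CPZ, and Fcgr1 6.29, 0.116 and 1.41 FPKM, while Mertk reached at most 0.316 FPKM. The 8 markers of large resident peritoneal macrophages summed to 112 to 142 FPKM in LPS, 10.2 to 11.7 FPKM in LPS+EtOH and 28.3 to 42.1 FPKM in LPS+CPZ, with 6 of 7 tested lower and 1 higher in each treatment than in LPS. Prg4, at 82.3 FPKM in LPS, made up most of that sum, and Gata6, the defining factor of these cells, reached at most 0.457 FPKM in any library. Transcripts of other cell types moved with the groups. The 10 neutrophil markers, all of them higher in LPS+EtOH than in LPS, summed to 3857 to 5428 FPKM in LPS, 43752 to 48329 FPKM in LPS+EtOH and 6384 to 6890 FPKM in LPS+CPZ. S100a9 and S100a8 made up most of each sum. In LPS, LPS+EtOH and LPS+CPZ, S100a9 had means of 3369, 33420 and 3208 FPKM, and S100a8 of 995, 9141 and 2752 FPKM. The 8 B cell markers summed to 501 to 752 FPKM in LPS, 37.9 to 58.7 FPKM in LPS+EtOH and 150.1 to 201 FPKM in LPS+CPZ, and the 8 T and NK cell markers to 50.7 to 65.4, 1.03 to 2.36 and 11.6 to 21.3 FPKM. In the LPS libraries 16.7, 11.5 and 29.4% of the summed FPKM came from the 4 adult globin genes, against 0.221, 0.192 and 0.172% with ethanol and 0.0768, 0.0452 and 0.0972% with CPZ. The part of these transcripts in the results on the 46 genes was not tested, and in bulk RNA fewer cells of a type and less RNA per cell cannot be told apart.

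Genes that reached 1 FPKM in 3 or more of the libraries were compared on log2(FPKM + 1) with limma, and Benjamini-Hochberg adjusted p-values over all 11721 genes tested were held to a threshold of 0.05. A log2 change given here is a difference on that scale with its standard error, a scale on which changes of low genes are understated, and a fold is the ratio of mean FPKM (n = 3 libraries per group). Of the 46 genes, 42 passed the filter, 39 of them with a library at 1 FPKM or more in all 3 groups. Eno2, Pdk1 and P4ha2 reached that level in LPS and LPS+CPZ and in no LPS+EtOH library. Pdk1 and P4ha2 each reached it in only 1 LPS library (1.11 and 1.18 FPKM) and in every LPS+CPZ library. These 2 genes thus passed the filter only through LPS+CPZ, so their place among the CPZ rises was set by the filter. The 4 genes that did not pass were Pfkm, with 0.0255 to 0.493 FPKM over the 9 libraries, Aldoc with 0 to 0.489 FPKM, Ldhb with 0 to 0.519 FPKM and Epas1, the gene of HIF-2α, with 0.0223 to 1.01 FPKM.

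CPZ went with a broad rise of the glycolytic chain and of the HIF targets. Against LPS, 32 of the 42 genes tested were higher in LPS+CPZ, 5 were lower and 5 were not called, with a median log2 change of 1.72. Among all genes tested, 20.7% were higher and 48.4% lower in the same comparison, with a median of -0.33, so rises took a far larger share of the 42 than of all genes and falls a smaller one. By set, 18 of 23 genes of glycolysis and transport rose and 5 fell, 2 of 6 genes of HIF and its sensing rose and none fell, and 12 of 13 other HIF targets rose and none fell. Pdk1 is counted among the 18 and P4ha2 among the 12, and both passed the filter only through LPS+CPZ. The rises were largest for the mitophagy gene Bnip3 (60.3-fold), the oxygen sensor gene Egln3 (37.8-fold), the little-known target Ankrd37 (15.0-fold) and the enzyme genes Tpi1 (14.1-fold) and Pfkl (13.7-fold). The 5 lower genes were Slc2a6, Pfkp, Pfkfb4, Eno2 and Slc16a1, and each of them encodes a protein that has a sister in the list which was higher.

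Ethanol divided the same genes. In LPS+EtOH 15 of the 42 were higher than in LPS, 13 were lower and 14 were not called, with a median log2 change of 0.10, against 19.0% higher and 64.6% lower among all genes and a median of -0.82. As deposited, rises were thus more frequent and falls less frequent among the 42 than among all genes. By set, 9 genes of glycolysis and transport rose and 6 fell, 4 of HIF and its sensing rose and 2 fell, and 2 other HIF targets rose and 5 fell. Hk3, Egln3, Slc16a3, Slc2a6 and Pfkfb3 had the largest log2 rises, and Adm, Slc16a1, Pfkp, Eno2 and Egln1 the largest falls. Between the treatments, LPS+CPZ was higher than LPS+EtOH for 34 genes and lower for 4, namely Slc2a6, Pfkfb4, Hif1a and Egln2, against 61.4% higher and 15.2% lower among all genes, a difference in the same direction as the background and larger in share for the rises. The median log2 difference was 1.63 for the 42 and 0.55 for all genes. The comparisons with LPS share its 3 libraries and are therefore not independent of each other.

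**Figure D1:**
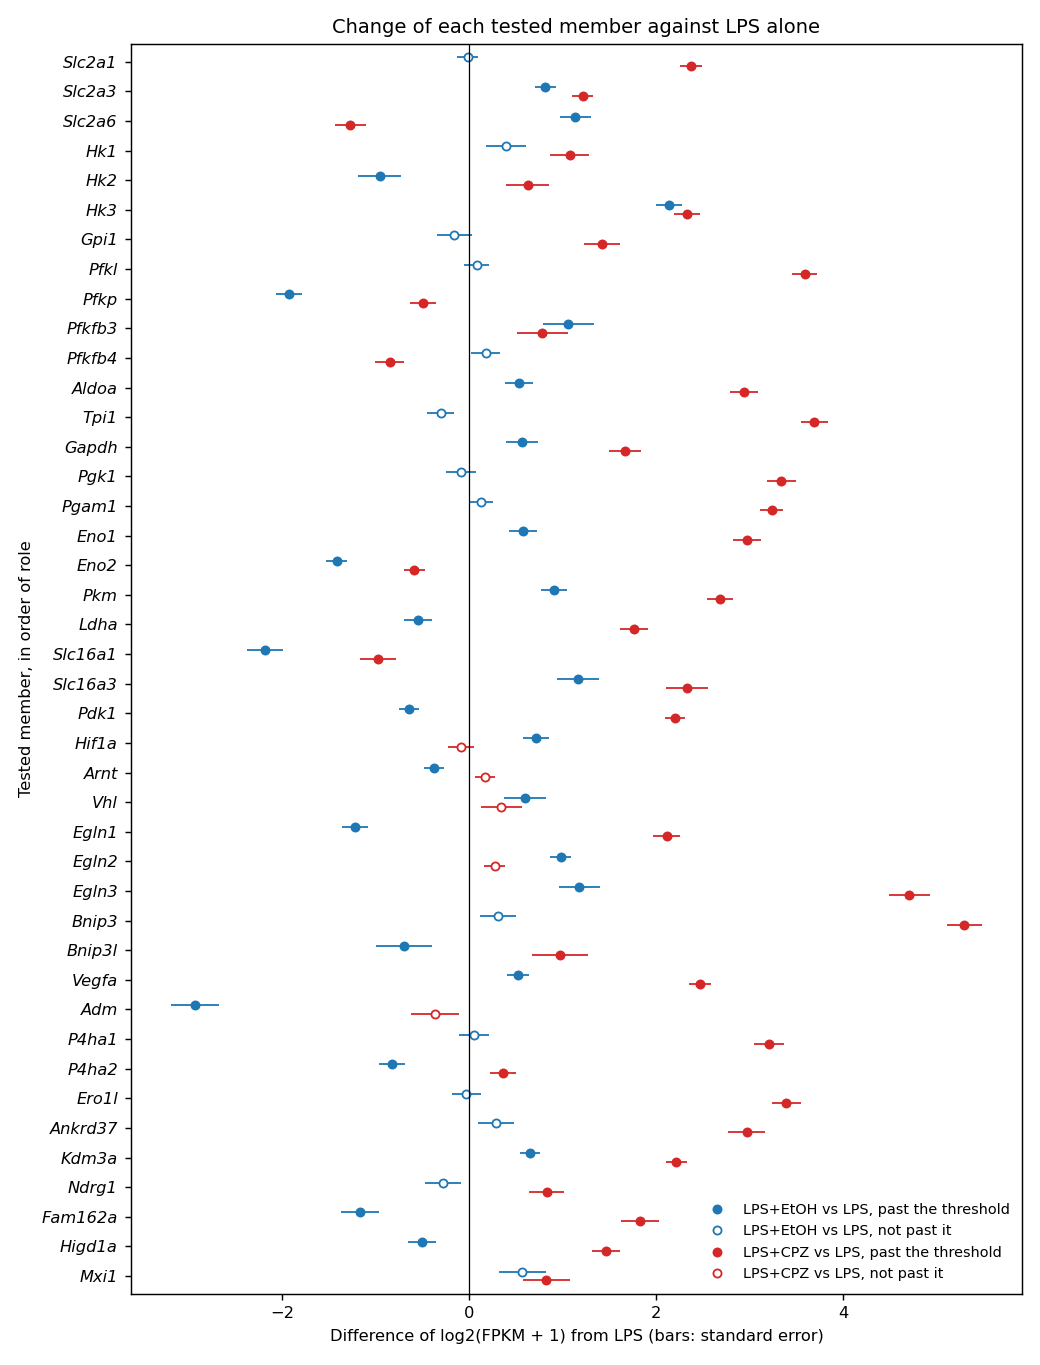
Difference of log2(FPKM + 1) from LPS alone for each of the 42 genes tested, ordered by role from top to bottom, for LPS+EtOH (blue) and LPS+CPZ (red). Points are limma estimates, bars are standard errors and filled points passed the threshold of 0.05. Most red points lie right of 0, with Bnip3 and Egln3 farthest out, and the blue points spread on both sides.

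How the libraries are scaled decides the direction of many ethanol values and few CPZ values. FPKM are relative to each library's total, and the median of all genes was itself shifted against LPS by -0.82 with ethanol and -0.33 with CPZ and by 0.55 between the treatments. With libraries scaled by the median ratio of genes those medians were -0.08, -0.08 and 0.08, and the genes called among all tested were 4435 higher and 4936 lower, 3228 higher and 3997 lower, and 4169 higher and 3686 lower, in place of 2230 and 7566, 2432 and 5674, and 7195 and 1785. Of the 42 genes, 31 were then higher and 7 lower with ethanol, 35 higher and 4 lower with CPZ, and between the treatments CPZ had 28 higher and 8 lower. With the 4 globin genes left out the first of these counts went the other way, to 7 higher and 19 lower, while LPS+CPZ held 27 higher and 7 lower. Of all 11717 genes then tested, 1613 were higher and 8445 lower with ethanol, and 1682 higher and 7391 lower with CPZ. With ethanol the share of rises among the 42 was then near that of all genes, and the share of falls was smaller. No gene called in LPS+CPZ against LPS changed direction under TPM, median-ratio or quantile scaling or without the globin genes, which the plot of both scalings shows as points that keep their side of 0.

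**Figure D2:**
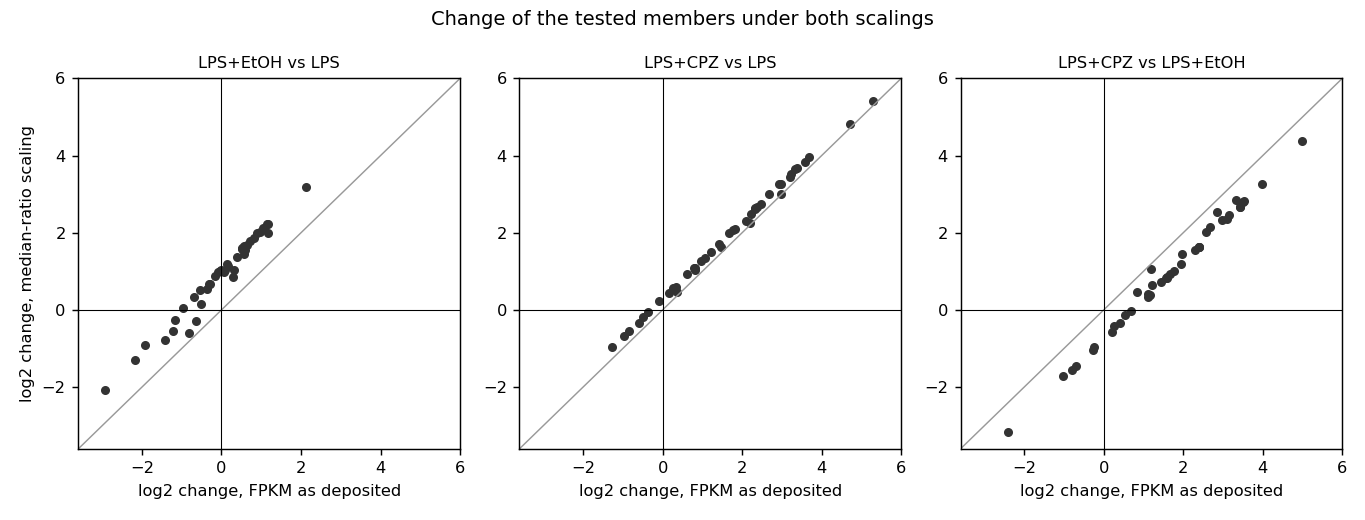
Log2 change of the 42 genes from FPKM as deposited (x axis) against the same change after median-ratio scaling (y axis), one panel per comparison, with the grey line where both are equal. In LPS+EtOH against LPS all points lie above the line and several cross from below 0 to above 0, in LPS+CPZ against LPS the points lie close to the line, and in LPS+CPZ against LPS+EtOH they lie below it.

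Because so many of these genes are known HIF targets, their promoters were read for the core of the HIF binding motif. RefSeq (GRCm38.p6) gave the 250 bases before a transcription start for 42 of the 46 genes, and Ndrg1, Slc2a3, Bnip3l and Epas1 had no entry. These 42 are not the 42 genes tested, since they include the untested Pfkm, Aldoc and Ldhb. The letters ACGTG, on either strand, occurred in the windows of 24 of the 42 genes (57.1%), of 25.9% of the 7781 tested genes with an entry and of 18.5% of all 27025 genes. The variant GCGTG, on either strand, occurred in 29 (69.0%), against 50.3% and 30.9%. Either one was present in 38 genes (90.5%), against 62.1% and 41.5%. A palindromic CACGTG counts on both strands, a gene with several windows counts once if any window matches, and a match describes letters and not a bound site. The 42 genes had 61 windows and all 27025 genes 32851, so the 42 had more windows per gene, which raises their share. The windows below, 5′ to 3′ along the gene with matches on either strand in capitals, were picked after their values were seen. Bnip3, Pgk1, Ldha, P4ha1 and Ero1l rose with CPZ and hold matches, Tpi1 rose and holds none, and Slc2a6 fell and holds 4. Among genes not shown, Slc16a1, Pfkp and Pfkfb4 also fell with CPZ and hold matches. Eno2 fell and holds none, and Gpi1 rose and holds none. Matches were thus present both in genes that rose and in genes that fell.
Bnip3, chr7:138909507-138909756, minus strand: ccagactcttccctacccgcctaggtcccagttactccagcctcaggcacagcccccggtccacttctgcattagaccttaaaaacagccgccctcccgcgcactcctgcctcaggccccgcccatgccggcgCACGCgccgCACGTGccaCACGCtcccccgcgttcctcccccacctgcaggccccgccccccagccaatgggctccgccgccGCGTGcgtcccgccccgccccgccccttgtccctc
Pgk1, chrX:106186850-106187099, plus strand: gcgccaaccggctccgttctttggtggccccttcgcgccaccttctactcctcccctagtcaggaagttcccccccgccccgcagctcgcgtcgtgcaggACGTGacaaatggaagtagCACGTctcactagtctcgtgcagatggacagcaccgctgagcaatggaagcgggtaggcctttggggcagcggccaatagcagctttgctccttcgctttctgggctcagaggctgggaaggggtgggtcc
Ldha, chr7:46845554-46845803, plus strand, the first of its windows: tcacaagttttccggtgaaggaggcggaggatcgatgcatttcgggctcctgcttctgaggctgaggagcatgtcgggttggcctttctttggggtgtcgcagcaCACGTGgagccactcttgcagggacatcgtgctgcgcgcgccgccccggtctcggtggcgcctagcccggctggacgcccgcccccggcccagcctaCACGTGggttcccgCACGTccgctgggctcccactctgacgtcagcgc
P4ha1, chr10:59323046-59323295, plus strand: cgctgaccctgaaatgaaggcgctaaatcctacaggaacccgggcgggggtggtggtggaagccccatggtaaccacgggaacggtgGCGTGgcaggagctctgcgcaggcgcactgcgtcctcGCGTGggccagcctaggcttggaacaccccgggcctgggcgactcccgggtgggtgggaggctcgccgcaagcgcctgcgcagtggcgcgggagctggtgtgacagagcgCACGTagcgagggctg
Ero1l, chr14:45318573-45318822, minus strand, named Ero1a by RefSeq: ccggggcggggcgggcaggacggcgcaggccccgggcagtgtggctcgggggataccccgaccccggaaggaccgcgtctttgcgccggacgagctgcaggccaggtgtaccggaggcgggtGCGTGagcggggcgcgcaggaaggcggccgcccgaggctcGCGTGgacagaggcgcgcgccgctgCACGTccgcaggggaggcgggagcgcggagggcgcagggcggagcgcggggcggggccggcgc
Tpi1, chr6:124814159-124814408, minus strand: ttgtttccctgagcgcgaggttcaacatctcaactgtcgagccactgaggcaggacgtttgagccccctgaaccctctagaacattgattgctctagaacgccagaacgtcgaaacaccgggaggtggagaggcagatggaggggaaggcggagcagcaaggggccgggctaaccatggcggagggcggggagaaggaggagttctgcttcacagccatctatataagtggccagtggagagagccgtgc
Slc2a6, chr2:27027999-27028248, minus strand: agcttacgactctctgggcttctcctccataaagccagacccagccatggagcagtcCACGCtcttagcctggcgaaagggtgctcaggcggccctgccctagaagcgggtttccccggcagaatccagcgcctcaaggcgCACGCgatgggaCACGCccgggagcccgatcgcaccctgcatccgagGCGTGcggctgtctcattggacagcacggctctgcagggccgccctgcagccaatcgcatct
In the Bnip3 window the matches begin 117, 108, 107, 99 and 35 bases before the start, and in the Pgk1 window 150 and 131 bases before it. The Ldha window holds CACGTG at both 145 and 48 bases before the start and a further match at 34.

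The glucose transporter genes moved in different directions. Slc2a1, which encodes the widespread glucose transporter GLUT1, had 27.8, 31.6 and 27.4 FPKM in LPS, 32.3, 26.7 and 26.9 FPKM in LPS+EtOH, and 154, 151 and 155 FPKM in LPS+CPZ. The LPS+CPZ libraries stood above all others, and LPS and LPS+EtOH overlapped. The gene rose 5.30-fold with CPZ (log2 change 2.37 ± 0.12, limma adjusted p = 1.19e-07), and with ethanol the log2 change was -0.02 ± 0.12 (adjusted p = 0.889; past the threshold at 1.04 under median-ratio scaling and at -0.43 without the globin genes). Slc2a3, which encodes the high-affinity transporter GLUT3, had 16.8, 14.8 and 14.2 FPKM in LPS, 28.2, 26.2 and 27.9 FPKM in LPS+EtOH, and 39.2, 37.6 and 33.4 FPKM in LPS+CPZ. None of the 3 groups overlapped, and Slc2a3 rose in both treatments, by 1.22 ± 0.11 with CPZ and 0.81 ± 0.11 with ethanol on the log2 scale. Its difference between the treatments (0.40) turned to -0.35 under median-ratio scaling and missed the threshold under quantile normalization (0.25). Slc2a6, which encodes GLUT6, a hexose transporter of intracellular membranes, had 71.8, 44.2 and 50.3 FPKM in LPS, 120.4, 114 and 127 FPKM in LPS+EtOH, and 20.5, 21.5 and 23.7 FPKM in LPS+CPZ. It was high in every LPS+EtOH library and low in every LPS+CPZ library, again with no overlap. Slc2a6 rose 2.17-fold with ethanol (log2 change 1.14 ± 0.17, adjusted p = 7.04e-05) and was 2.53-fold lower with CPZ (-1.27 ± 0.17, adjusted p = 6.66e-05).

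Within a library, a transporter's share of the summed FPKM of all 3 does not depend on how libraries are scaled. Slc2a1 held 29.5% of that sum in LPS, 16.2% with ethanol and 72.3% with CPZ, and Slc2a6 held 55.1, 68.2 and 10.3%. Slc2a6 was thus the leading transcript of the 3 in LPS and LPS+EtOH and the least in LPS+CPZ. In each of the 3 comparisons no Slc2a1 or Slc2a6 share of one group reached that of the other, which in the exact two-sided permutation test gives p = 0.1, the smallest that 3 against 3 libraries allow. Over the 84 tests made on 28 shares in 12 families, 68 reached that value and none could fall below the threshold (smallest Benjamini-Hochberg adjusted p = 0.124). These tests are not independent: in a pair such as Eno1 and Eno2 the shares mirror each other. The count also includes genes near 0 FPKM, such as Aldoc, and no other gene families were set beside it.

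**Figure D3:**
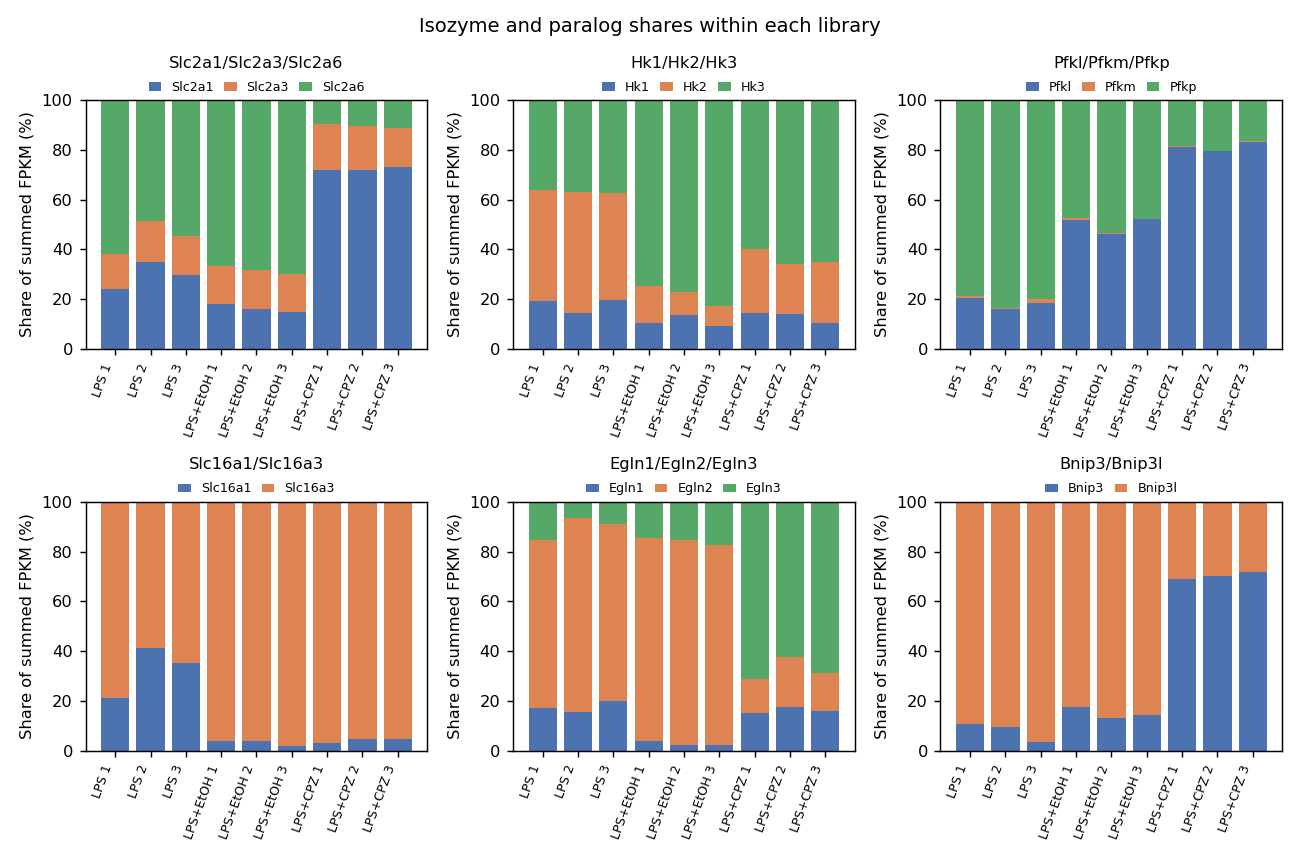
Share of each isozyme or paralog in the summed FPKM of its family (y axis, percent) in each of the 9 libraries (x axis), one panel per family. The blue Slc2a1 block fills about 72.3% of each LPS+CPZ bar, green Hk3 most of each LPS+EtOH bar, and blue Pfkl, green Egln3 and blue Bnip3 most of each LPS+CPZ bar.

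The hexokinases, which trap glucose in the cell by phosphorylation, all rose with CPZ and parted with ethanol. Hk3, the myeloid form, had 16.1, 18.02 and 12.7 FPKM in LPS, 64.9, 79.0 and 70.2 FPKM in LPS+EtOH, and 80.9, 86.0 and 78.5 FPKM in LPS+CPZ. It was several times higher in every treated library than in any LPS library, and the treated groups overlapped. Hk3 rose 4.58-fold with ethanol (log2 change 2.13 ± 0.14, limma adjusted p = 2.28e-07) and 5.25-fold with CPZ (2.33 ± 0.14, adjusted p = 4e-07). Hk2, the inducible form, had 19.9, 23.7 and 14.7 FPKM in LPS, 13.0, 9.31 and 6.67 FPKM in LPS+EtOH, and 34.4, 26.3 and 29.7 FPKM in LPS+CPZ. The groups did not overlap, with LPS+EtOH lowest and LPS+CPZ highest. Its fall with ethanol (-0.96 ± 0.23) became 0.06 under median-ratio scaling and missed the threshold under quantile normalization (-0.40). Its rise with CPZ (0.62 ± 0.23, adjusted p = 0.0304) missed the threshold without LPS replicate 1 (0.65) or 3 (0.45), without LPS+CPZ replicate 1 (0.53) or 3 (0.63), under TPM scaling (0.58), without the globin genes (0.27), and with no filter (adjusted p = 0.0954). Hk1, the form found in most tissues, had 8.46, 6.94 and 6.75 FPKM in LPS, 8.89, 13.9 and 7.93 FPKM in LPS+EtOH, and 19.5, 18.2 and 12.8 FPKM in LPS+CPZ. Only LPS and LPS+CPZ did not overlap, and the CPZ rise was 1.07 ± 0.21. Against LPS+EtOH it was 0.68 ± 0.21, which became -0.04 under median-ratio scaling and missed the threshold under quantile normalization (0.35) and without LPS+EtOH replicate 3 (0.53), and without that library the ethanol change of 0.39 passed it (0.54).

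Hk2 was the largest hexokinase share in LPS, at 45.5 ± 2.93% (SD, n = 3), and Hk3 the largest in both treated groups, at 78.3 ± 4.08% in LPS+EtOH and 63.6 ± 3.16% in LPS+CPZ against 36.8 ± 0.567% in LPS. All 3 comparisons of the Hk3 share had no overlap (exact two-sided permutation p = 0.1 each). Beside these shares stand the neutrophil markers. The 10 markers summed to 3857 to 5428 FPKM in LPS and 43752 to 48329 FPKM with ethanol, mostly from S100a9 and S100a8. Hk3, Slc2a3 and Slc2a6 rose beside these markers in LPS+EtOH, and the part of neutrophil RNA in those rises was not tested. In LPS+CPZ the markers summed to 6384 to 6890 FPKM, 3 of the 10 were higher than in LPS (Ly6g among them, with 274 ± 31.1 FPKM against 16.9 ± 4.79 FPKM; SD, n = 3) and 3 were lower (Csf3r among them, with 101 ± 21.6 FPKM against 161 ± 49.2 FPKM). The part of neutrophil RNA in the CPZ value of Hk3 was not tested either.

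Gpi1, phosphoglucose isomerase, had 19.2, 22.6 and 25.0 FPKM in LPS, 16.5, 17.2 and 26.8 FPKM in LPS+EtOH, and 70.6, 53.4 and 59.9 FPKM in LPS+CPZ. The LPS+CPZ libraries were highest, the other groups overlapped, and the rise with CPZ was 2.76-fold (1.42 ± 0.19). The ethanol value of Gpi1, -0.16 ± 0.19, was past the threshold at 0.89 under median-ratio scaling and at -0.57 without the globin genes. Phosphofructokinase, the committing step of glycolysis, changed in both its summed transcripts and its isozyme shares. The isozymes summed to 35.7 ± 5.85 FPKM in LPS, 13.8 ± 1.70 FPKM with ethanol and 109 ± 4.68 FPKM with CPZ (SD, n = 3). Pfkl, the liver type, had 6.50, 6.77 and 6.06 FPKM in LPS, 7.43, 5.48 and 7.87 FPKM in LPS+EtOH, and 86.7, 83.7 and 94.9 FPKM in LPS+CPZ. Every LPS+CPZ library was far above all others, and LPS and LPS+EtOH overlapped. Pfkl rose 13.7-fold (log2 change 3.59 ± 0.13, limma adjusted p = 5.82e-08), and its ethanol value of 0.08 ± 0.13 was called under median-ratio (1.03) and quantile (0.89) scaling. Pfkp, the platelet type, had 25.0, 35.4 and 26.4 FPKM in LPS, 6.79, 6.32 and 7.22 FPKM in LPS+EtOH, and 19.7, 21.4 and 18.9 FPKM in LPS+CPZ. It was highest in LPS and lowest in LPS+EtOH, with no overlap among groups. Its fall with ethanol was -1.93 ± 0.14 (adjusted p = 3.87e-07), and that with CPZ was -0.50 ± 0.14 (adjusted p = 0.00866), which missed the threshold under median-ratio scaling (-0.18). Pfkp made 80.7 ± 2.48% (SD, n = 3) of phosphofructokinase transcripts in LPS, 49.4 ± 3.31% with ethanol and 18.5 ± 1.87% with CPZ, and Pfkl made 18.3, 49.99 and 81.3%.

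The PFKFB enzymes set the level of the sugar phosphate that activates phosphofructokinase. Pfkfb3 had 23.1, 29.0 and 15.4 FPKM in LPS, 57.5, 44.2 and 39.5 FPKM in LPS+EtOH, and 54.3, 38.0 and 27.1 FPKM in LPS+CPZ. LPS+EtOH lay above LPS, and LPS+CPZ overlapped both. Pfkfb3 rose with ethanol (1.06 ± 0.27, limma adjusted p = 0.00396; 0.65 and not past the threshold without the globin genes). The CPZ rise of 0.78 ± 0.27 (adjusted p = 0.0253) missed the threshold without LPS replicate 3 (0.54), LPS+CPZ replicate 1 (0.53) or LPS+CPZ replicate 2 (0.79), under TPM scaling (0.74), without the globin genes (0.42) and with no filter (adjusted p = 0.0895). Pfkfb4 had 6.93, 6.57 and 7.87 FPKM in LPS, 8.48, 6.72 and 9.49 FPKM in LPS+EtOH, and 4.46, 3.18 and 2.97 FPKM in LPS+CPZ. Its LPS+CPZ libraries were the lowest, at a log2 change of -0.85 ± 0.16 from LPS, and LPS and LPS+EtOH overlapped. Its ethanol value of 0.18 ± 0.16 was called under median-ratio (1.15) and quantile (0.95) scaling.

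The steps from aldolase to pyruvate kinase rose together with CPZ. Aldoa, the aldolase expressed in these cells, had 102, 107 and 102 FPKM in LPS, 139.5, 133 and 182 FPKM in LPS+EtOH, and 857, 699 and 860.0 FPKM in LPS+CPZ. It rose 7.75-fold with CPZ and 1.46-fold with ethanol, the latter past no threshold under quantile normalization (log2 change 0.30) or without the globin genes (0.11). Tpi1, triosephosphate isomerase, had 9.08, 9.71 and 9.81 FPKM in LPS, 8.65, 5.86 and 8.35 FPKM in LPS+EtOH, and 132, 124 and 148 FPKM in LPS+CPZ. Both genes were highest in every LPS+CPZ library, and Tpi1 showed the largest fold of any glycolytic enzyme tested, 14.1-fold (log2 change 3.69 ± 0.14, limma adjusted p = 5.82e-08). Its ethanol value of -0.30 ± 0.14 passed the threshold without LPS+EtOH replicate 1 (-0.39), under TPM scaling (-0.44) and without the globin genes (-0.69). It was a called rise under median-ratio scaling (0.68) and quantile normalization (0.44). Gapdh, often used as a reference gene, had 87.0, 68.0 and 73.5 FPKM in LPS, 98.4, 105 and 137 FPKM in LPS+EtOH, and 256, 201 and 279 FPKM in LPS+CPZ. Its groups did not overlap, and it rose 3.22-fold with CPZ (1.67 ± 0.17) and 1.49-fold with ethanol (0.56 ± 0.17, adjusted p = 0.0105, but 0.15 and past no threshold without the globin genes). Pgk1, phosphoglycerate kinase, which makes the first ATP of the pathway, had 49.8, 43.4 and 40.0 FPKM in LPS, 42.2, 34.5 and 49.4 FPKM in LPS+EtOH, and 443, 412 and 519 FPKM in LPS+CPZ. Pgam1, phosphoglycerate mutase, had 29.8, 32.5 and 25.9 FPKM in LPS, 33.2, 28.1 and 35.3 FPKM in LPS+EtOH, and 286, 283 and 281 FPKM in LPS+CPZ. For both, LPS+CPZ stood apart and the other groups overlapped, with CPZ rises of 10.3-fold and 9.64-fold. Their ethanol log2 changes of -0.09 ± 0.16 and 0.13 ± 0.13 were not called. Under median-ratio scaling these were 0.99 and 1.19, both called. Without the globin genes the value of Pgk1 was -0.50 and called, and that of Pgam1 was -0.28 and not called.

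Eno1, the main enolase, had 22.0, 20.9 and 18.4 FPKM in LPS, 30.9, 25.4 and 37.4 FPKM in LPS+EtOH, and 169.7, 152 and 178 FPKM in LPS+CPZ. Eno2, the neuron-type enolase, had 3.20, 3.61 and 3.17 FPKM in LPS, 0.619, 0.631 and 0.601 FPKM in LPS+EtOH, and 1.76, 2.28 and 1.62 FPKM in LPS+CPZ. They moved in opposite directions with both treatments, and no groups overlapped for either. Eno1 rose 8.16-fold with CPZ and 1.53-fold with ethanol (the latter past no threshold without the globin genes, log2 change 0.17), while Eno2 was 1.76-fold and 5.39-fold lower. Pkm, pyruvate kinase, had 95.0, 108 and 81.8 FPKM in LPS, 176, 165 and 192 FPKM in LPS+EtOH, and 607, 560.1 and 668 FPKM in LPS+CPZ. It rose 6.45-fold with CPZ (log2 change 2.68 ± 0.14) and 1.87-fold with ethanol (0.90 ± 0.14), and the groups did not overlap. Near copies of these genes are listed with values of their own that run parallel to them: Pgam1-ps2 had 19.2 ± 2.29 FPKM (SD, n = 3) in LPS and 212 ± 33.4 FPKM in LPS+CPZ, Pgk1-rs7 6.77 ± 0.474 and 61.2 ± 7.18, Eno1b 5.37 ± 0.192 and 46.9 ± 7.62, and Tpi-rs11 0.207 ± 0.0280 and 3.95 ± 0.888. How fragments were split between each gene and its copy is not known, so the levels of Pgam1, Pgk1, Eno1 and Tpi1 are uncertain to that extent.

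**Figure D4:**
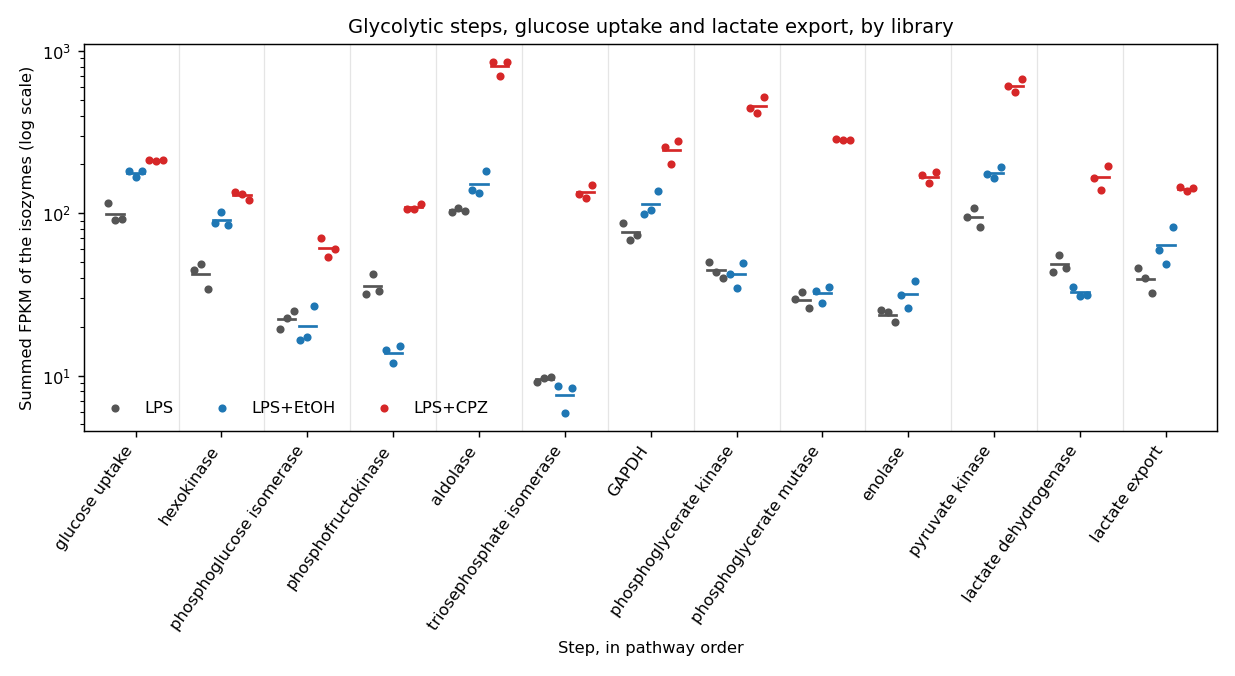
Summed FPKM of the isozymes of each step (y axis, log scale) along the pathway (x axis), with 1 point per library and a line at the group mean (n = 3). LPS+CPZ lies above both other groups at every step, least at glucose uptake and most at triosephosphate isomerase, while LPS+EtOH lies farthest below LPS at phosphofructokinase.

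Summed over isozymes, the ratio of LPS+CPZ to LPS was uneven along the chain. It was 2.13 at glucose uptake, 3.04 at hexokinase, 2.76 at phosphoglucose isomerase and 3.04 at phosphofructokinase. From aldolase on it was 7.74, then 14.1 at triosephosphate isomerase, 3.22 at GAPDH, 10.3 at phosphoglycerate kinase, 9.64 at phosphoglycerate mutase, 7.09 at enolase and 6.45 at pyruvate kinase. The upper steps and GAPDH thus had the smaller ratios. The matching ethanol ratios ran from 0.386 at phosphofructokinase, where Pfkp fell, to 2.15 at hexokinase, where Hk3 rose. The 10 steps from hexokinase to pyruvate kinase summed to 483 ± 31.4 FPKM in LPS, 682 ± 76.4 FPKM with ethanol and 3006 ± 258 FPKM with CPZ (SD, n = 3), or 0.1497, 0.195 and 0.887% of all FPKM. No test was made on these sums.

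At the end of the pathway the genes for making and exporting lactate differed between the treatments. Ldha, the lactate dehydrogenase subunit that favours lactate, had 43.0, 55.2 and 46.1 FPKM in LPS, 35.0, 31.0 and 31.5 FPKM in LPS+EtOH, and 164, 139 and 195 FPKM in LPS+CPZ. Groups did not overlap, with LPS+EtOH lowest. Ldha rose 3.46-fold with CPZ (log2 change 1.76 ± 0.15, limma adjusted p = 3.75e-06), and its fall with ethanol (-0.55 ± 0.15, adjusted p = 0.00558) was a rise of 0.53 under median-ratio scaling. Slc16a3, the lactate exporter MCT4, had 36.1, 23.6 and 20.9 FPKM in LPS, 56.8, 46.9 and 80.5 FPKM in LPS+EtOH, and 139.9, 131 and 136 FPKM in LPS+CPZ. It was lowest in LPS, intermediate in LPS+EtOH and highest in LPS+CPZ with no overlap, at log2 changes of 1.17 ± 0.22 and 2.33 ± 0.22 from LPS. Slc16a1, the bidirectional transporter MCT1, had 9.66, 16.4 and 11.3 FPKM in LPS, 2.24, 1.97 and 1.55 FPKM in LPS+EtOH, and 4.57, 6.26 and 6.45 FPKM in LPS+CPZ. LPS was highest, LPS+CPZ intermediate and LPS+EtOH lowest, with no overlap, and Slc16a1 was 6.50-fold lower with ethanol (-2.18 ± 0.19) and 2.17-fold lower with CPZ (-0.98 ± 0.19). Slc16a3 accordingly held 67.6 ± 10.3% of the pair's FPKM in LPS (SD, n = 3), 96.8 ± 1.17% in LPS+EtOH and 95.9 ± 0.8003% in LPS+CPZ. Pdk1, a kinase that blocks the entry of pyruvate into the mitochondrial cycle, had 0.849, 0.953 and 1.11 FPKM in LPS, 0.289, 0.216 and 0.265 FPKM in LPS+EtOH, and 8.85, 7.28 and 8.06 FPKM in LPS+CPZ. It rose 8.30-fold with CPZ (2.20 ± 0.11) with no overlap among groups, and its ethanol value of -0.65 ± 0.11 was 0.07 under quantile normalization. Pdk1 passed the filter only through LPS+CPZ, so its place among the CPZ rises was set by the filter.

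Neither HIF subunit gene was called with CPZ as deposited, whereas 2 of the 3 oxygen sensor genes rose. Hif1a, the labile alpha subunit, had 59.6, 49.1 and 50.1 FPKM in LPS, 90.6, 74.9 and 96.8 FPKM in LPS+EtOH, and 54.4, 50.7 and 44.1 FPKM in LPS+CPZ. LPS and LPS+CPZ overlapped, and LPS+EtOH lay above both. The log2 change of Hif1a was -0.09 ± 0.14 with CPZ (limma adjusted p = 0.592; 0.23 under median-ratio scaling, -0.46 and past the threshold without the globin genes) and 0.71 ± 0.14 with ethanol (adjusted p = 0.000678; 0.30 and not past the threshold without the globin genes). Arnt, the stable partner, had 6.20, 6.07 and 6.45 FPKM in LPS, 4.61, 4.30 and 4.85 FPKM in LPS+EtOH, and 7.75, 7.10 and 6.55 FPKM in LPS+CPZ. It was lowest in LPS+EtOH without overlap, but its ethanol change of -0.37 ± 0.10 was 0.55 under median-ratio and 0.51 under quantile scaling. Its CPZ change of 0.17 ± 0.10 was called under median-ratio scaling (0.43) and was -0.16 without the globin genes, and its difference between the treatments, 0.54, was -0.12 under median-ratio scaling. Vhl, which carries hydroxylated HIF to degradation, had 3.97, 6.72 and 6.94 FPKM in LPS, 10.1, 8.33 and 9.18 FPKM in LPS+EtOH, and 8.14, 5.30 and 9.81 FPKM in LPS+CPZ. LPS+CPZ overlapped both other groups, and the ethanol rise of 0.60 ± 0.22 (adjusted p = 0.0277) missed the threshold without LPS replicate 1 (0.38), LPS+EtOH replicate 1 (0.53) or LPS+EtOH replicate 3 (0.60), under TPM scaling (0.55), without the globin genes (0.23) and with no filter (adjusted p = 0.0829). The CPZ value of 0.34 passed it without LPS+CPZ replicate 2 (0.56), under median-ratio scaling (0.60) and under quantile normalization (0.72).

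Egln3, which encodes the oxygen sensor PHD3 and is itself a known HIF target, had 3.13, 1.36 and 1.69 FPKM in LPS, 5.32, 5.55 and 6.33 FPKM in LPS+EtOH, and 94.9, 59.4 and 79.1 FPKM in LPS+CPZ. No groups overlapped, and LPS+CPZ was far above the rest. The gene rose 37.8-fold with CPZ (log2 change 4.70 ± 0.22, limma adjusted p = 1.05e-07) and 2.78-fold with ethanol (1.18 ± 0.22, adjusted p = 0.00044). Egln1, which encodes PHD2, the main sensor and also a HIF target, had 3.47, 3.32 and 3.75 FPKM in LPS, 1.37, 0.732 and 0.754 FPKM in LPS+EtOH, and 20.3, 16.8 and 18.4 FPKM in LPS+CPZ. It rose with CPZ (2.11 ± 0.14, adjusted p = 8.7e-07) and fell with ethanol (-1.22 ± 0.14, adjusted p = 1.2e-05; -0.27 and not past the threshold under quantile normalization), again with no overlap. Egln2, which encodes PHD1, had 13.9, 16.8 and 13.4 FPKM in LPS, 30.1, 29.7 and 29.7 FPKM in LPS+EtOH, and 17.8, 18.8 and 17.1 FPKM in LPS+CPZ. It was highest in LPS+EtOH (0.98 ± 0.11), and its CPZ value of 0.27 ± 0.11 (adjusted p = 0.0503) passed the threshold without LPS replicate 2 (0.37), under median-ratio scaling (0.57) and under quantile normalization (0.54), and was -0.08 without the globin genes. Of the FPKM of these sensors, Egln2 made 72.4 ± 5.35% in LPS and 81.7 ± 0.918% in LPS+EtOH (SD, n = 3), and Egln3 made 67.6 ± 4.58% in LPS+CPZ. The Egln1 share was 17.4 ± 2.25, 2.61 ± 0.977 and 16.3 ± 1.23% in the same order of groups.

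**Figure D5:**
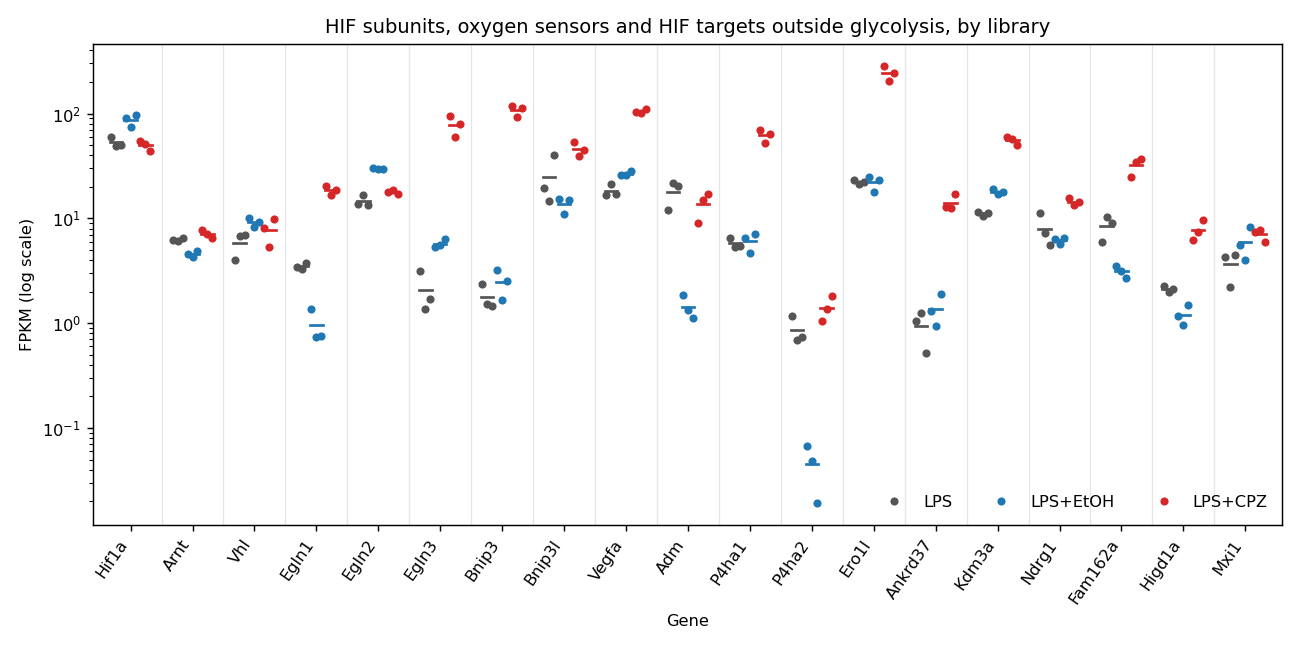
FPKM (y axis, log scale) of the tested HIF subunits, oxygen sensors and HIF targets outside glycolysis (x axis), with 1 point per library and a line at each group mean (n = 3). Red LPS+CPZ points lie above the others for most targets, farthest for Egln3 and Bnip3, whereas the groups lie close together for Hif1a and Arnt, and Adm and P4ha2 are lowest in LPS+EtOH.

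Of the 13 HIF targets outside glycolysis, 12 rose with CPZ and Adm was not called as deposited. P4ha2, counted among the 12, passed the filter only through LPS+CPZ. With ethanol 2 rose, 5 fell and 6 were not called as deposited, while median-ratio scaling gave 8 up and 2 down. Among all genes 19.0% were higher and 64.6% lower with ethanol as deposited, so the rises were near that share and the falls below it. Median-ratio scaling gave 4435 higher and 4936 lower of all 11721 genes. Bnip3, a receptor that directs damaged mitochondria to autophagy, had 2.36, 1.53 and 1.47 FPKM in LPS, 3.24, 1.67 and 2.50 FPKM in LPS+EtOH, and 117, 92.5 and 113 FPKM in LPS+CPZ. The LPS and LPS+EtOH libraries overlapped near the filter limit, and all LPS+CPZ libraries were far above them. Bnip3 rose 60.3-fold (log2 change 5.29 ± 0.19, limma adjusted p = 5.82e-08), and its ethanol value of 0.31 passed the threshold without LPS+EtOH replicate 2 (0.48), under median-ratio scaling (1.04) and under quantile normalization (1.19). Bnip3l, its sister, which also clears mitochondria from maturing red blood cells, had 19.5, 14.6 and 40.1 FPKM in LPS, 15.2, 11.1 and 14.9 FPKM in LPS+EtOH, and 53.0, 39.4 and 44.7 FPKM in LPS+CPZ. The high library was LPS replicate 3, which overlapped LPS+CPZ and also held the most globin and the most Alas2, an erythroid heme gene (246, 142 and 527 FPKM in the LPS libraries). Without that library the ethanol change of Bnip3l was -0.30 (adjusted p = 0.175) in place of -0.70 ± 0.30 (adjusted p = 0.0486), and the value was 0.34 under median-ratio scaling. The call also ended without LPS replicate 1 (-0.80), without LPS+EtOH replicate 1 (-0.77), 2 (-0.56) or 3 (-0.76), under quantile normalization (-0.26), with a pseudocount of 5 (-0.58), with only the 2 groups compared in the fit (adjusted p = 0.0669) and with no filter (adjusted p = 0.137). The CPZ change of 0.97 ± 0.30 missed the threshold without LPS replicate 2 (0.68), without the globin genes (0.61) and with no filter (adjusted p = 0.059). The 7 erythroid markers summed to 34791 to 107461 FPKM in LPS, 608 to 747 FPKM in LPS+EtOH and 153 to 349 FPKM in LPS+CPZ, and their part in either value was not tested. Bnip3 made 7.92 ± 3.87% of the pair in LPS (SD, n = 3), 15.0 ± 2.30% with ethanol and 70.2 ± 1.48% with CPZ.

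The list held secreted factors too. Vegfa, the main signal for blood vessel growth, had 16.8, 21.4 and 17.0 FPKM in LPS, 26.1, 25.8 and 28.1 FPKM in LPS+EtOH, and 103, 102 and 111 FPKM in LPS+CPZ. Groups did not overlap, and Vegfa rose 5.74-fold with CPZ (log2 change 2.46 ± 0.12, limma adjusted p = 1.19e-07) and 1.45-fold with ethanol (0.52 ± 0.12; 0.12 and not past the threshold without the globin genes). Adm, the gene of the vasodilator peptide adrenomedullin, had 12.0, 21.7 and 20.3 FPKM in LPS, 1.86, 1.33 and 1.11 FPKM in LPS+EtOH, and 9.13, 15.1 and 17.0 FPKM in LPS+CPZ. It was low in every LPS+EtOH library, while LPS and LPS+CPZ overlapped. Adm was 12.5-fold lower with ethanol (-2.93 ± 0.26, adjusted p = 1.38e-06), the largest fall on the log2 scale among the 42 genes, and stood at -0.36 ± 0.26 with CPZ (adjusted p = 0.224; past the threshold without LPS replicate 1, at -0.62, and without the globin genes, at -0.72, adjusted p = 0.0181). The difference between the treatments was 2.57 ± 0.26 (adjusted p = 9.89e-06).

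Genes of collagen and disulfide formation came next. P4ha1, a catalytic subunit of collagen prolyl hydroxylase, had 6.48, 5.36 and 5.48 FPKM in LPS, 6.55, 4.66 and 7.11 FPKM in LPS+EtOH, and 69.8, 52.6 and 63.1 FPKM in LPS+CPZ. Ero1l, which forms disulfide bonds in the endoplasmic reticulum, had 23.5, 21.3 and 22.3 FPKM in LPS, 24.8, 17.8 and 23.4 FPKM in LPS+EtOH, and 285, 205 and 246 FPKM in LPS+CPZ. In both cases LPS and LPS+EtOH overlapped and LPS+CPZ was separate, 10.7-fold above LPS for P4ha1 and 10.99-fold for Ero1l (log2 changes 3.21 ± 0.16 and 3.39 ± 0.16). Their ethanol values of 0.06 ± 0.16 and -0.03 ± 0.16 were called under median-ratio scaling, at 0.99 and 1.02. Without the globin genes P4ha1 was at -0.31 and not called, and Ero1l at -0.44 and called. P4ha2, the second catalytic subunit, had 1.18, 0.691 and 0.731 FPKM in LPS, 0.0673, 0.0489 and 0.0194 FPKM in LPS+EtOH, and 1.04, 1.37 and 1.80 FPKM in LPS+CPZ. It was close to 0 in LPS+EtOH, with a fall of -0.83 ± 0.14 (limma adjusted p = 0.000179). P4ha2 passed the filter only through LPS+CPZ. Its CPZ rise of 0.36 ± 0.14 (adjusted p = 0.0353) overlapped LPS and missed the threshold without LPS replicate 2 (0.29) or 3 (0.31), without LPS+CPZ replicate 2 (0.37) or 3 (0.24), without the globin genes (0.17), under TPM scaling (0.48), with a pseudocount of 0.1 (adjusted p = 0.0761), with no filter (adjusted p = 0.102) and with only the 2 groups compared in the fit (adjusted p = 0.0727).

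The remaining targets act in the nucleus, the mitochondria and stress responses. Ankrd37, an ankyrin repeat protein, had 1.06, 1.25 and 0.521 FPKM in LPS, 1.30, 0.931 and 1.88 FPKM in LPS+EtOH, and 12.7, 12.5 and 17.2 FPKM in LPS+CPZ. Kdm3a, a histone demethylase, had 11.6, 10.6 and 11.2 FPKM in LPS, 19.3, 16.9 and 17.9 FPKM in LPS+EtOH, and 59.4, 56.5 and 50.1 FPKM in LPS+CPZ. LPS+CPZ was separate from both other groups for each, at log2 changes of 2.97 ± 0.20 and 2.21 ± 0.11, and Kdm3a also rose with ethanol (0.65 ± 0.11; 0.26 and not past the threshold without the globin genes). Fam162a, a mitochondrial protein linked to cell death, had 5.90, 10.3 and 8.98 FPKM in LPS, 3.51, 3.14 and 2.70 FPKM in LPS+EtOH, and 24.6, 34.3 and 37.2 FPKM in LPS+CPZ. Higd1a, a mitochondrial protein that acts on the respiratory chain, had 2.28, 2.01 and 2.11 FPKM in LPS, 1.18, 0.972 and 1.48 FPKM in LPS+EtOH, and 6.19, 7.39 and 9.58 FPKM in LPS+CPZ. Both were lowest in LPS+EtOH and highest in LPS+CPZ without overlap. Fam162a rose by 1.82 ± 0.20 and Higd1a by 1.46 ± 0.15 with CPZ, and their ethanol falls of -1.16 ± 0.20 and -0.51 ± 0.15 were -0.26 (not past the threshold) and 0.16 under median-ratio scaling, -0.27 (not past the threshold) and 0.40 under quantile normalization, and for Higd1a -0.20 (not past the threshold) with a pseudocount of 5. Ndrg1, a stress-induced gene, had 11.1, 7.24 and 5.60 FPKM in LPS, 6.34, 5.68 and 6.51 FPKM in LPS+EtOH, and 15.5, 13.5 and 14.4 FPKM in LPS+CPZ. Mxi1, which opposes MYC at its target genes, had 4.30, 2.24 and 4.45 FPKM in LPS, 5.54, 3.97 and 8.35 FPKM in LPS+EtOH, and 7.48, 7.76 and 6.003 FPKM in LPS+CPZ. LPS+CPZ lay above LPS for both, with LPS and LPS+EtOH overlapping, at log2 changes of 0.83 ± 0.19 and 0.82 ± 0.25 (limma adjusted p = 0.00288 and 0.013). The Mxi1 rise was 0.58 and not past the threshold without LPS replicate 2, 0.53 and not past it without the globin genes, and not past it with no filter (adjusted p = 0.0539). The ethanol value of Ndrg1 (-0.28) passed the threshold without LPS replicate 3 (-0.48), and that of Mxi1 (0.57) without LPS replicate 1 (0.68) or 3 (0.70) or LPS+EtOH replicate 2 (0.78), under median-ratio scaling (1.45) and under quantile normalization (1.40). Under median-ratio scaling Ndrg1 was 0.68 and past the threshold, and Ankrd37, at 0.28 as deposited, was 0.86 and past it. Without the globin genes Ndrg1 was -0.66 and past the threshold.

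Beyond the 46 genes, listed partners of the pathway were counted in the same fit, to be read against 20.7% higher and 48.4% lower of all genes with CPZ and 19.0% higher and 64.6% lower with ethanol. Bpgm and Pdp2, at or above 1 FPKM in LPS alone, and Ak4, at or above it in LPS+CPZ alone, were tested only because of the group where they were high, so their place in a count was set by the filter. Of 3 other tested genes of hexose and monocarboxylate transport, 2 rose with CPZ. Bsg, the chaperone of the lactate transporters, went from 30.8 ± 8.37 FPKM to 81.7 ± 11.8 FPKM (SD, n = 3; log2 change 1.40 ± 0.18), with 13.0 ± 1.42 FPKM in LPS+EtOH, and Slc16a6, a further monocarboxylate carrier, from 49.3 ± 7.10 to 105 ± 2.87 FPKM (1.08 ± 0.13). None of the 4 other tested isozymes of glycolysis rose with CPZ as deposited (1 did under quantile normalization), and Adpgk was called lower (-0.57; not under median-ratio scaling), as was Bpgm. Bpgm, which red blood cells use to make their oxygen-releasing phosphate, had 35.3, 25.5 and 87.8 FPKM in the LPS libraries and was highest where globin was highest. Of 27 genes of pyruvate entry and the TCA cycle, which burns pyruvate in mitochondria, 21 fell with CPZ and 2 rose, Mpc1 and Pdhb (10 fell and 3 rose under median-ratio scaling). With ethanol 25 fell and 1 rose, Mpc1 (18 fell and 5 rose under median-ratio scaling). Falls as deposited took a larger share of this list than of all genes in both comparisons (48.4% with CPZ and 64.6% with ethanol). The median-ratio background was 3997 genes lower with CPZ and 4936 lower with ethanol, out of 11721 tested. Against that background the list's share of falls was near that of all genes with CPZ and still larger with ethanol. Pdha1, a subunit of pyruvate dehydrogenase, had 19.3 ± 1.53 FPKM in LPS (SD, n = 3), falling to 2.30 ± 0.192 FPKM with ethanol and to 7.38 ± 0.623 FPKM with CPZ (log2 changes -2.62 ± 0.11 and -1.28 ± 0.11).

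Of 10 other regulators of HIF, 2 rose and 3 fell with CPZ, and 2 rose and 5 fell with ethanol, rises near the share in all genes (20.7% and 19.0%) and falls at smaller shares than in all genes (48.4% and 64.6%). Under median-ratio scaling these were 5 and 3, and 5 and 3. Cited2, which competes with HIF for its coactivator, went from 20.3 ± 6.29 FPKM (SD, n = 3) to 56.5 ± 5.94 FPKM with CPZ (1.46 ± 0.18), and Hif1an, the hydroxylase that blocks coactivator binding, fell from 10.97 ± 0.362 to 5.14 ± 0.199 FPKM (-0.96 ± 0.11). Of 16 other known HIF targets, 7 rose and 4 fell with CPZ (10 and 3 under median-ratio scaling), and 6 rose and 7 fell with ethanol (8 and 5), with rises at larger and falls at smaller shares than in all genes in both comparisons. Ak4, a mitochondrial adenylate kinase, had 0.309 ± 0.245 FPKM in LPS, 0.0480 ± 0.0481 FPKM with ethanol and 4.94 ± 0.336 FPKM with CPZ, and is counted as 1 of the 7. Hilpda, a lipid droplet protein, rose from 34.4 ± 7.11 to 174 ± 25.2 FPKM (2.32 ± 0.18). Edn1, the gene of endothelin, fell from 44.1 ± 25.4 to 0.866 ± 0.184 FPKM with CPZ (-4.45 ± 0.30).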

How the data were processed

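The unit is FPKM per gene, deposited by the authors in 1 table of 9 libraries. FastQC 0.11.2, STAR and StringTie are named in the submitters' processing notes, without the last 2 versions. Libraries were strand-specific, per the labels' protocols, and the strand setting used in counting is not given in the sources used here. The notes name the build hg38, while 55154 of 55335 identifiers are in the mouse annotation GENCODE M21, so no coordinate was taken from the table. Fragments could not be recovered from the values (41.7 to 43.2% of the low values were whole multiples of 1 step to within 2%), so the depth, and the precision it gives, is unknown and no count test was run. Genes at 1 FPKM or more in at least 3 libraries (11721) entered limma 3.58.1 in R 4.3.3 on log2(FPKM + 1), with all 9 libraries in 1 fit, 1 term per group, a variance trend, 6 residual degrees of freedom and two-sided Benjamini-Hochberg adjusted p-values. Shares, sums and figures were made with pandas 2.3.3, numpy 2.4.6 and matplotlib 3.10.9 under Python 3.11.15. Shares of isozymes were compared by exact permutation. The script was tested on simulated data. Members and lists were chosen with earlier results of these data known. By rule, every tested member is given with all its values, and other lists by counts with at most 2 genes per direction. TPM, median-ratio and quantile scaling, removal of the globin genes, other pseudocounts and filters, the variance without trend, only the groups compared, a replicate block and leaving out each library were tried. The table holds 0 value columns without a sample.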

Additional observations from a re-analysis of the deposited data

How the results depend on the processing

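Scaling moved the ethanol counts most. In LPS+EtOH against LPS, 15 members were higher and 13 lower as deposited, 31 and 7 under median-ratio scaling, 25 and 6 under quantile normalization, and 7 and 19 with the globin genes left out. Of all 11721 genes tested, 2230 were higher and 7566 lower as deposited. These counts were 4435 and 4936 under median-ratio scaling, and 4160 and 4633 under quantile normalization. With the globin genes left out they were 1613 and 8445 of 11717. In LPS+CPZ against LPS+EtOH, 8 members were lower under median-ratio scaling in place of 4, and 3686 of all genes in place of 1785. A filter of 5 FPKM left 5345, 4741 and 4993 of all genes called in LPS+EtOH against LPS, LPS+CPZ against LPS and LPS+CPZ against LPS+EtOH, in place of 9796, 8106 and 8980, since fewer genes were tested. Leaving out 1 library gave 14 to 17 higher and 12 to 13 lower members with ethanol, 29 to 31 and 5 to 6 with CPZ, and 33 to 34 and 4 between the treatments. Those fits called 9478 to 9688, 7460 to 8004 and 8358 to 8769 of all genes, both directions together. Under median-ratio scaling the ethanol log2 changes that turned positive were Slc2a1 1.04, Hk2 0.0595, Gpi1 0.89, Tpi1 0.68, Pgk1 0.99, Ldha 0.53, Arnt 0.55, Bnip3l 0.34, Ero1l 1.02, Ndrg1 0.68 and Higd1a 0.16, and under quantile normalization Slc2a1 0.23, Gpi1 0.20, Tpi1 0.44, Pgk1 0.0119, Pdk1 0.0743, Arnt 0.51, Ero1l 0.32, Ndrg1 0.53 and Higd1a 0.40. Those that turned negative were Pfkl -0.0205 and P4ha1 -0.045 under TPM scaling, and Pfkl -0.29, Pfkfb4 -0.20, Pgam1 -0.28 and P4ha1 -0.31 without the globin genes. Without 1 library at a time the ethanol changes ran from -0.10 to 0.0451 for Slc2a1, -0.0091 to 0.22 for Pfkl, -0.21 to 0.0461 for Pgk1, -0.0483 to 0.21 for P4ha1 and -0.12 to 0.11 for Ero1l. With CPZ against LPS, Hif1a turned to 0.23 under median-ratio scaling, and Arnt to -0.16 and Egln2 to -0.0804 without the globin genes. Between the treatments, Slc2a3 turned to -0.35, Hk1 to -0.0398, Hk3 to -0.57, Arnt to -0.12 and Mxi1 to -0.42 under median-ratio scaling, and Mxi1 to -0.21 under quantile normalization. The causes of these turns were not tested. All other combinations of a member, a comparison and a setting kept their direction, and of all such combinations 1979 kept direction and call, 43 reversed, 49 gained a call and 65 lost one.

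The labels number the replicates 1 to 3 in each group. Deviations of same-numbered libraries from their group means correlated at -0.006 to 0.26 across genes, and those of differently numbered libraries at -0.204 to 0.127. The same-numbered values were not above 0.1 in every pair, so the number was not taken as a pairing. That rule does not exclude one. With the replicate block, 17 members were higher and 13 lower with ethanol, 31 and 5 with CPZ, and 34 and 4 between the treatments. Among all genes the block gave 9871, 8156 and 9086 calls, both directions together. It added the ethanol calls of Bnip3 (adjusted p = 0.0491, limma) and Mxi1 (0.037), ended the CPZ call of P4ha2 (0.36, adjusted p = 0.052, limma) and changed no other call of a member. Differences of isozyme shares were recomputed only with 1 library left out at a time. All 504 such values moved by less than 1 SD between libraries. With 3 libraries per group that step cannot move a difference by 1 SD, so this outcome was fixed and says nothing about stability. Depth is unknown, so the counting error of values near 0, such as P4ha2 in LPS+EtOH, cannot be given.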

Other observations

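Genes of the branches that leave glycolysis moved in both directions. Of 16 tested genes of glycogen and the sugar side branches, 7 rose and 4 fell with CPZ (median log2 change 0.20), against 20.7% higher and 48.4% lower among all genes tested, and 5 rose and 6 fell with ethanol (10 and 5 under median-ratio scaling), against 19.0% higher and 64.6% lower. Khk, at or above 1 FPKM in LPS alone, was tested only because of that group. Gbe1, the glycogen branching enzyme and a known HIF target, had 6.91, 7.53 and 6.01 FPKM in LPS, 6.38, 4.76 and 6.68 FPKM in LPS+EtOH and 89.1, 63.7 and 83.0 FPKM in LPS+CPZ. It rose by 3.34 ± 0.16 with CPZ (limma adjusted p = 1.14e-07). Pygb, a glycogen phosphorylase, had 5.38, 4.68 and 6.25 FPKM in LPS, 0.436, 0.307 and 0.388 FPKM in LPS+EtOH and 1.72, 2.84 and 2.42 FPKM in LPS+CPZ, and fell in both treatments (-2.22 ± 0.15 and -0.96 ± 0.15).

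In the pentose phosphate pathway, which makes NADPH and ribose from glucose, 3 of 8 genes rose and 2 fell with CPZ. With ethanol 3 rose and 4 fell (4 and 3 under median-ratio scaling). Among all genes 20.7% were higher and 48.4% lower with CPZ, and 19.0% higher and 64.6% lower with ethanol. The 8 genes are too few to read a difference from these shares. Taldo1, transaldolase, went from 122 ± 22.7 FPKM (SD, n = 3) in LPS to 362 ± 77.04 FPKM in LPS+EtOH and 506 ± 61.3 FPKM in LPS+CPZ (log2 changes 1.57 ± 0.19 and 2.06 ± 0.19). Of 4 tested genes of gluconeogenesis and its regulators, none rose and 3 fell with ethanol, while 1 rose and 2 fell with CPZ, too few genes to set against the shares of all genes. The 1 that rose was Pcx, pyruvate carboxylase, with 0.167 ± 0.0276 FPKM in LPS, 0.0872 ± 0.0326 FPKM with ethanol and 1.78 ± 0.170 FPKM with CPZ. It reached 1 FPKM in LPS+CPZ alone and was tested only because of that group, so its rise was set by the filter. Tigar, a phosphatase that lowers glycolysis, fell from 3.49 ± 0.608 to 0.611 ± 0.146 FPKM with ethanol and 1.28 ± 0.349 FPKM with CPZ (-1.47 ± 0.15 and -0.98 ± 0.15).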
